A study of Mus musculus with 4 samples.

Results

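The transcription factors of cortical layer identity Satb1, Fezf2, Tbr1, Cux1, Cux2, Rorb, Bcl11b and Foxp2 were followed across sections of the mouse brain. These 8 genes were found by their symbols among the 19465 genes of the feature table, and all 8 of 8 were present once. The study put wild-type C57BL/6J dams on a diet with a moderate or a high amount of folic acid (FA), 2 mg/kg (MF) or 20 mg/kg (HF), from before mating through pregnancy and lactation, and examined their sons at postnatal day 21 (P21). Half-brain coronal sections of formalin-fixed, paraffin-embedded tissue were measured by Visium, in which probes for each gene are captured on barcoded spots at a pitch of 100 µm and counted as unique molecular identifiers (UMIs). There were 2 MF and 2 HF sections, which the study calls biological replicates. The genotype, sex and age were shared by both groups, the control group also received FA, and each group was represented by 2 sections only, so that p-values measure the spread between these sections.

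Neurons of the isocortex lie in layers, and each layer holds neurons with their own targets. Transcription factors that are switched on as the neurons are born divide them into classes, and many stay on in the mature cortex: Cux1 and Cux2 are homeodomain factors of upper-layer neurons that project within the cortex, Rorb is a nuclear receptor of layer 4, the layer that receives thalamic input, and Fezf2 and Bcl11b (Ctip2) belong to the programme of layer 5 neurons that project out of the cortex. Tbr1, a T-box factor, and Foxp2, a forkhead factor, are known from layer 6 neurons that project to the thalamus, and Satb1 is a chromatin organiser of projection neurons and interneurons. Several of them are also used elsewhere, among them Bcl11b and Foxp2 in striatal projection neurons.

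The 4 sections held 3197 to 3598 spots with at least 500 UMIs and 250 genes, 13452 in all, and 34983708 to 90098381 UMIs. MF replicate 1 was the deepest. Levels are given in CPM, the UMIs of a gene scaled to a common total of UMIs over the same spots of that section, in the order MF replicate 1, MF replicate 2, HF replicate 1, HF replicate 2. A spot covers several cells, so fewer cells of a type and less RNA per cell cannot be told apart. Spots were grouped into areas and cortical layers by other genes, with the 8 factors and a list of 28 other transcription factors kept out. The L2-3 cluster was led by Lamp5 and Stard8, the L4 cluster by Kcnh5, the L5 cluster held Parm1, Rbp4 and Sulf2, and the L6 clusters held Rprm, Syt6 and Hs3st4. A lateral cluster of 406 spots led by Myl4 and a cluster of 205 spots led by Ccn2 and Cplx3 met the naming rule for no layer and were left out of the layers. The L1 spots also held genes of the meninges such as Col1a1 and Ptgds. The planes of the sections differed: olfactory and amygdala spots numbered 167 in HF replicate 2 and 270 to 312 in the others, and striatal spots 204 there against 120 to 154.

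**Figure D1:**
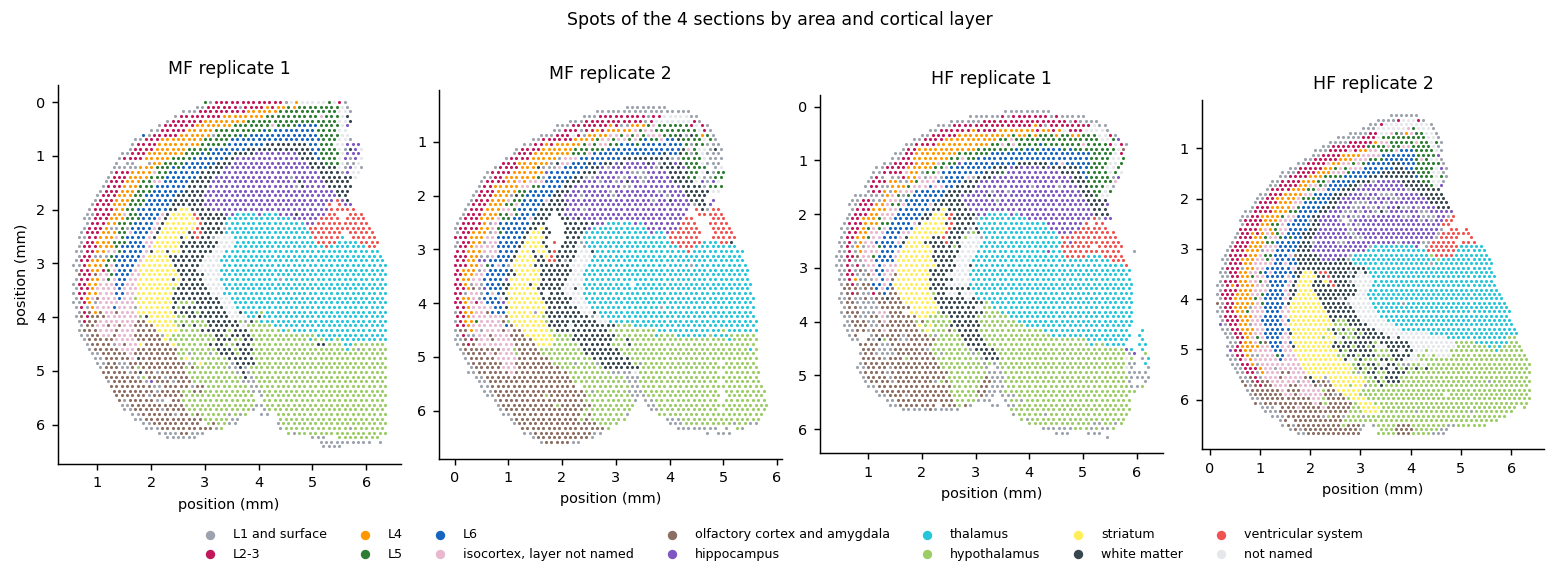
Maps of the 4 sections with each spot at its position (mm on both axes), coloured by its area or cortical layer. From the section edge inward, L2-3, L4 and L6 follow each other as bands in all 4 sections, and L5 is broader toward the medial cortex than laterally.

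On the GRCm38 build, with GENCODE vM21 genes, Satb1 lies at chr17:51736187-51833290 on the minus strand, Fezf2 at chr14:12342094-12348189 (minus), Tbr1 at chr2:61802930-61814114 (plus), Cux1 at chr5:136248135-136567490 (minus), Cux2 at chr5:121856366-122050102 (minus), Rorb at chr19:18930605-19111196 (minus), Bcl11b at chr12:107910403-108003602 (minus) and Foxp2 at chr6:14901349-15441977 (plus). None overlapped another protein-coding gene. The 250 bases before the transcription start were taken from RefSeq promoters of GRCm38.p6, which gave 13 promoters for 7 of the 8 genes (Foxp2 was not listed). The search was for letter strings on both strands: TAATTA, the core of many homeodomain sites, CCAAT, which reads ATTGG on the other strand, and TATAAA, the letters of the TATA motif found before some genes. TAATTA was found in 4.84% of all 32851 promoters and in 1 of the 13, that of Tbr1, where it stood 2 times. CCAAT was found in 33.8% of all and in 1 of the 13, at Rorb, and TATAAA in 12.4% of all and in 1 of the 13, at Cux2. The matches are shown to let a reader see these stretches, with the matching letters in capitals, and are descriptions of the letters alone. The Rorb stretch, chr19:19111197-19111446 on the minus strand, lies directly before the gene and overlaps no exon. The Tbr1 stretch of 30 bases, chr2:61804416-61804445 (plus), is exonic in the GENCODE models, and 25 of the 30 bases of the Cux2 stretch, chr5:122047867-122047896 (minus), are exonic.
Rorb: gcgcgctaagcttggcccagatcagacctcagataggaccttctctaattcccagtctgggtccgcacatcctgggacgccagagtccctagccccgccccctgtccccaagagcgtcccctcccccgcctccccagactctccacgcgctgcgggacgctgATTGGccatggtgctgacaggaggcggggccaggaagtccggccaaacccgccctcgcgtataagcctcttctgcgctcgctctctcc
Tbr1: atccTAATTAatgtctatcTAATTAaatta
Cux2: tcgaTATAAAgaggaggggatgctcctcca

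Over whole sections the factors were measured at 13.6 to 137 CPM. Satb1 was listed at 137, 124, 121 and 133 CPM, Cux1 at 104, 106, 111 and 126 CPM, and Foxp2 at 14.6, 13.6, 16.6 and 16.0 CPM. Probe numbers per gene are not known here, so levels are compared within a gene and not between genes. Between 14.1% (Foxp2, MF replicate 2) and 86.3% (Satb1, MF replicate 1) of spots held at least 1 UMI. The deposited Moran's I, a score of how alike neighbouring spots are, was 0.271 to 0.392 for Satb1 and 0.208 to 0.449 for Fezf2, which placed Satb1 at percentiles of 97.8 to 98.4 and Fezf2 at 96.5 to 99.0 of all genes in a section. It was lowest for Cux1 (0.0653 to 0.126), and for every one of the 8 the highest value was that of the deepest section.

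Position, with no gene used to order spots, separated outer from inner factors. Which spots were isocortex had been named from other genes, and spots named L1 were not among them. Isocortex spots were put in bands of 200 µm by their distance from the nearest position without tissue, and the bands at 200 to 600 µm were compared with those at 600 to 1000 µm within sections. Of 3005 isocortex spots, 468 were left out because the array border was nearer than the tissue edge. In this contrast 7 of the 8 factors were called (edgeR, adjusted p under 0.05 and at least 1.2-fold), beside 14.4% of all genes tested.

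Cux2 was higher on the outer side. Its level fell from 139, 133, 141 and 143 CPM at 0 to 200 µm to 44.1, 31.0, 41.0 and 45.0 CPM at 600 to 800 µm, without overlap. Of the spots at 0 to 200 µm, 82.7% to 97.9% were L2-3 spots. In the L1 spots, which the bands do not hold, Cux2 was at 83.0 to 93.7 CPM. The log2 difference of Cux2 between the outer and inner bands was 1.26 ± 0.07 (SE, 4 sections). Cux1 differed in the same direction by 0.96 ± 0.06, from 183, 201, 204 and 185 CPM at 200 to 400 µm to 89.2, 81.3, 85.9 and 100.3 CPM at 600 to 800 µm. At 1000 to 1200 µm both were above their level at 600 to 800 µm in each of the 4 sections, with Cux2 at 45.8 to 87.0 CPM. Rorb stood at 164, 129, 138 and 106 CPM at 400 to 600 µm and at 15.6 to 33.8 CPM at 1000 to 1200 µm, with an outer-minus-inner log2 difference of 1.22 ± 0.08. Every section had its highest Rorb band at 400 to 600 µm.

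The output-neuron factors lay deeper. Fezf2 was highest at 600 to 800 µm in all 4 sections, at 94.9, 91.6, 149.8 and 154 CPM, and at 3.91 to 14.6 CPM in the outermost band, with a log2 difference of -1.47 ± 0.09. Bcl11b differed by -1.54 ± 0.14, being at 6.48 to 11.3 CPM at 200 to 400 µm and 32.2 to 42.1 CPM at 800 to 1000 µm, ranges that do not overlap. Foxp2 showed the largest log2 difference of the 8, -1.89 ± 0.24, with levels of 0.833 to 3.24 CPM at 200 to 400 µm and of 14.1 to 29.3 CPM at 1000 to 1200 µm. Tbr1 was at 85.4, 67.0, 91.4 and 84.1 CPM in the innermost band, and differed by -0.46 ± 0.08. The innermost band was the highest for Tbr1 and for Foxp2 in every section but MF replicate 2, where 800 to 1000 µm was. Satb1 had its highest level at 400 to 600 µm (311, 336, 335 and 315 CPM) and differed by only -0.19 ± 0.04, under 1.2-fold (edgeR adjusted p = 8.7e-05). With the bands shifted inward by 100 µm the difference of Satb1 turned to 0.12, that of Fezf2 shrank to -0.51 and that of Cux2 to 0.73. The 7 calls were kept with the shifted bands and in each of the other 6 alternatives.

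**Figure D2:**
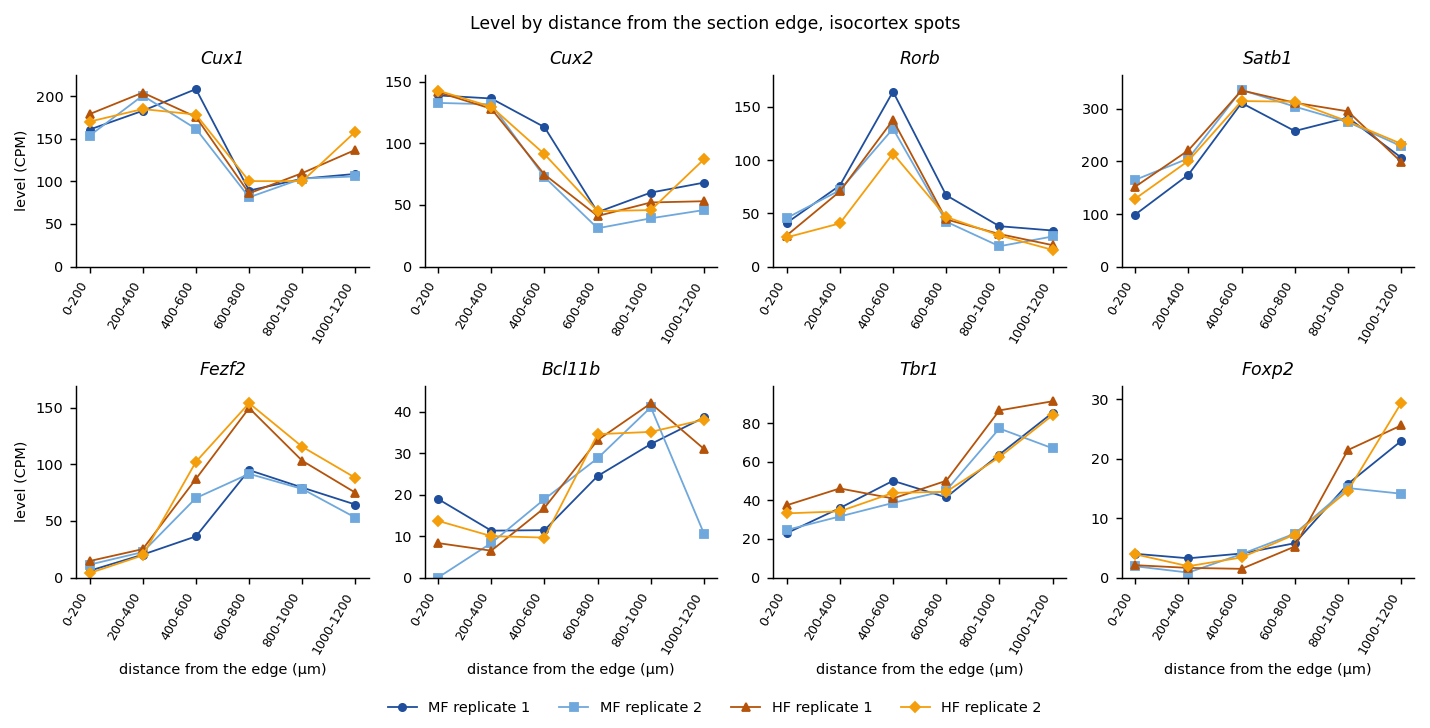
Level of each factor (CPM, 1 panel per gene) in bands of 200 µm against distance from the section edge (µm), with 1 line per section, MF and HF coloured apart. Cux2 falls inward, Rorb peaks at 400 to 600 µm, Fezf2 at 600 to 800 µm, and Tbr1 and Foxp2 are highest in the innermost 2 bands.

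The layers told the same factors apart more finely, with the reservation that spots had been grouped by other genes of the same spots. Steps between neighbouring layers were tested with the section as a block. From L1 to L2-3, 7 of the 8 factors were called, beside 35.5% of all genes. From L2-3 to L4, 5 were called, beside 13.3%. From L4 to L5, 5 were called, beside 17.2%, and from L5 to L6, 7, beside 12.4%. Into L2-3 from L1, Cux2 (0.76 ± 0.10), Tbr1 (0.71 ± 0.21) and Cux1 (0.41 ± 0.09) were higher, and Foxp2 (-2.33 ± 0.47), Bcl11b (-1.09 ± 0.26), Fezf2 (-0.89 ± 0.33) and Rorb (-0.42 ± 0.15) lower. Of these, Tbr1 was not called without HF replicate 2 (0.40), Fezf2 not without HF replicate 1 or HF replicate 2 (-0.72 in each) or at Leiden resolution 1.5, a finer clustering (-0.48, edgeR adjusted p = 0.26), and Rorb not without MF replicate 2 (-0.41), without HF replicate 2 (-0.28) or with no filter on low counts (-0.36).

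Cux2 was at 147, 130, 142 and 147 CPM in L2-3 and at 120, 106, 127 and 120 CPM in L4, and then at 33.8 to 44.8 CPM in L5. The step from L4 to L5 was -1.71 ± 0.09 on the log2 scale, while that from L2-3 to L4 was -0.25 ± 0.07, just under 1.2-fold although lower in 4 of 4 sections (edgeR adjusted p = 0.0041). It passed 1.2-fold in 4 alternatives, with values of -0.27 to -0.39. Cux1 had its highest level in L4 (208, 213, 263 and 219 CPM), against 176, 188, 199 and 188 CPM in L2-3 (0.28 ± 0.06). It then fell by 1.42 ± 0.07 into L5, where it was at 74.3 to 106 CPM. The step of Cux1 from L2-3 to L4 was lost without HF replicate 1 (0.25, under 1.2-fold) and at Leiden resolution 1.5 (0.17). Rorb was at 169, 182, 194 and 149 CPM in L4 against 21.0 to 67.5 CPM over all other layers, with steps of 1.98 ± 0.09 into L4 and -2.31 ± 0.09 out of it into L5.

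Fezf2 reached 142, 114, 160 and 190 CPM in L5 and 86.1, 71.5, 103 and 98.9 CPM in L6. In L4 it was at 18.0 to 35.2 CPM and in L2-3 at 3.23 to 12.6 CPM, the latter from 6 to 45 UMIs a section. These steps were called, at 1.55 ± 0.21 into L4, 2.50 ± 0.11 into L5 and -0.74 ± 0.08 into L6. In the unnamed lateral cluster led by Myl4 it was at 90.4, 107, 126 and 152 CPM, so that the L5 of this grouping does not hold all spots rich in Fezf2. The L5 spots also differed between sections. MF replicate 1 held 186 of them at a median of 768 µm from the edge, and the other sections 97 to 135 at 557 µm. Bcl11b was higher in L6 (34.0, 32.9, 40.4 and 34.5 CPM) than in L5 (27.8, 24.4, 25.8 and 21.7 CPM), without overlap between the layers, by 0.45 ± 0.12. Its step from L4 to L5 was larger, 1.69 ± 0.18, and in L4 it was at 5.75 to 8.94 CPM.

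Tbr1 stood at 84.7, 71.5, 85.0 and 75.8 CPM in L6 and at 33.3 to 47.6 CPM in L4 and L5, a step into L6 of 1.02 ± 0.09, while L4 and L5 did not differ beyond the test (-0.19 ± 0.11, edgeR adjusted p = 0.23). Its smaller step of 0.39 from L2-3 into L4 was lost without MF replicate 1 (0.31) and without MF replicate 2 (0.34). Foxp2 was at 20.1, 15.5, 19.2 and 27.8 CPM in L6 and at 0.842 to 7.76 CPM in L2-3, L4 and L5, where it rested on 1 to 45 UMIs a section. In L1 it was at 5.64 to 15.5 CPM, from 2 to 11 UMIs. Its step into L6 was 1.86 ± 0.21. Satb1 was high in L4, L5 and L6 alike, at 262 to 343 CPM, and at 128 to 181 CPM in L1 and L2-3. Its step into L4 was 1.10 ± 0.06, the step from L4 to L5 was 0.06 ± 0.05 (edgeR adjusted p = 0.49) and the step into L6 was -0.25 ± 0.05, under 1.2-fold.

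Some steps from L5 to L6 moved with the grouping. At Leiden resolution 1.5, the step of Cux2 from L5 to L6 turned from 0.47 to -0.27 (edgeR adjusted p = 0.21), and those of Cux1 (0.08), Bcl11b (0.20) and Rorb (-0.40 beside -0.38, adjusted p = 0.062) were no longer called. With the factors left in the clustering, Bcl11b was not called either (0.23, adjusted p = 0.24). The step of Cux2 was also lost without MF replicate 1 (0.32, adjusted p = 0.12), and that of Rorb without MF replicate 2 (-0.33, adjusted p = 0.073). In all 24 of 32 steps were called, and 19 to 25 in the alternatives.

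**Figure D3:**
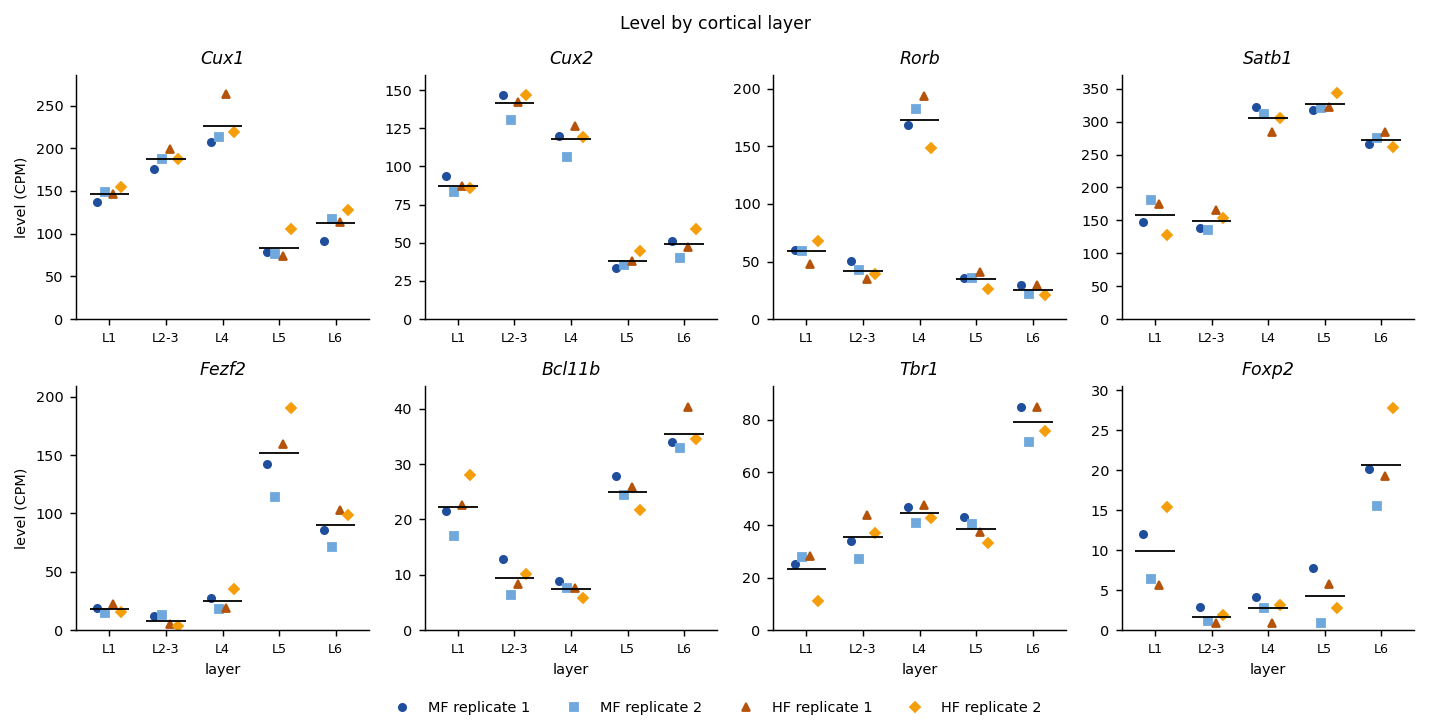
Level of each factor (CPM, 1 panel per gene, axis from 0) by cortical layer from L1 to L6, with 1 point per section (MF and HF marked apart) and a line at the mean of 4. Cux2 is highest in L2-3, Cux1 and Rorb in L4, Fezf2 in L5, and Tbr1, Bcl11b and Foxp2 in L6.

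Across the section, the isocortex had the highest mean level of Satb1, Fezf2, Tbr1, Cux1 and Cux2, but not of Rorb, Bcl11b and Foxp2. Here too the areas were named from other genes of the same spots. Each area was compared with the mean of the other 7, with the section as a block, and 47 of 64 pairs of gene and area were called (44 to 47 in the alternatives). In the isocortex 7 of the 8 factors were called, beside 39.9% of all genes, in the olfactory and amygdala spots 6 (31.8%), in the hippocampus 8 (30.7%) and in the thalamus 7 (36.1%). In the hypothalamus the count was 6 (36.6%), in the striatum 3 (22.7%), in the white matter 3 (42.7%) and in the ventricular system 7 (41.3%). Some single calls were less stable than the total. That of Cux1 in the ventricular system was kept with library size alone only (0.23 to 0.26 in the other alternatives). That of Bcl11b in the white matter was kept with library size alone and without MF replicate 1 only. Fezf2 in the olfactory and amygdala spots and Cux1 in the hypothalamus also lost their calls in some alternatives.

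Fezf2 was at 75.6, 58.4, 84.8 and 88.2 CPM in the isocortex, which was 2.02 ± 0.09 above the other areas on the log2 scale. By its mean it came next in the hippocampus, at 37.4 to 50.6 CPM, which overlapped the white matter, and last in the thalamus, at 7.81 to 10.7 CPM, which overlapped the hypothalamus. Tbr1 was at 56.6, 47.4, 57.7 and 50.9 CPM in the isocortex (1.91 ± 0.07), at 31.3 to 38.3 CPM in the olfactory and amygdala spots and at 5.13 to 10.9 CPM in the thalamus. Satb1 was at 257, 253, 271 and 254 CPM in the isocortex (1.62 ± 0.04), above the hippocampus at 111 to 130 CPM, which overlapped the white matter at 113 to 117 CPM. Cux2 was at 72.3 to 82.3 CPM in the isocortex (0.97 ± 0.05) and at 56.2 to 61.9 CPM in the thalamus, where it was also above the mean of the other areas (0.52 ± 0.06). It was lowest in the hippocampus, at 19.3 to 27.6 CPM. Cux1 at 122 to 149 CPM in the isocortex overlapped its 123 to 145 CPM in the ventricular system, and its lowest area, the hippocampus, was at 71.0 to 81.2 CPM. The ventricular system was named from genes of the choroid plexus and ependyma and also of the medial habenula, so it may hold habenula spots.

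Taken over whole areas, Rorb, Bcl11b and Foxp2 were higher elsewhere than in the isocortex. In L4 alone, Rorb at 149 to 194 CPM was above the thalamus as a whole. Rorb was at 79.4, 74.8, 80.4 and 82.9 CPM in the thalamus against 62.1, 62.7, 62.6 and 49.1 CPM in the isocortex, without overlap. Both areas were above the mean of the others, by 1.25 ± 0.06 and 0.79 ± 0.06. Within the thalamus it ranged from 37.2 to 42.5 CPM in spots led by Cbln1 and Calb1 to 105 to 188 CPM in spots led by Eps8l2 and Tnnt1. Foxp2 had the opposite order in these spots, at 13.8 to 18.6 CPM in those led by Eps8l2 and Tnnt1 and at 19.1 to 32.3 CPM in those led by Cbln1 and Calb1. It was highest in thalamic spots led by Calb2, a calcium-binding protein, at 52.8, 44.6, 54.6 and 77.7 CPM.

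Foxp2 over the whole thalamus was at 27.5, 30.7, 32.6 and 37.5 CPM (1.60 ± 0.09) and in the striatum at 33.4, 30.1, 48.6 and 36.3 CPM (1.70 ± 0.15), and these overlapped. Both lay above the isocortex, at 6.15 to 9.93 CPM (-0.50 ± 0.12). Bcl11b was highest in the striatum, at 71.3, 68.3, 76.0 and 96.6 CPM (1.92 ± 0.09), and next in the hippocampus, at 55.1, 61.9, 60.4 and 73.0 CPM (1.56 ± 0.07), with overlap between the areas. Its isocortex level of 21.0 to 24.3 CPM did not differ from the mean of the others beyond the test (0.03 ± 0.07, edgeR adjusted p = 0.70). Within the hippocampus it was at 119, 134, 128 and 122 CPM in CA1 and at 74.5, 92.5, 76.2 and 96.7 CPM in the dentate gyrus, and at 13.2 to 22.3 CPM in CA2-3. Foxp2 in CA1 rested on at most 2 UMIs a section and is not read here. Striatal calls rest on 120 to 204 spots a section, and that of Rorb there (-0.33 ± 0.12) was lost without MF replicate 1 (-0.29), without HF replicate 2 (-0.27) and with the factors left in the clustering (-0.30).

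**Figure D4:**
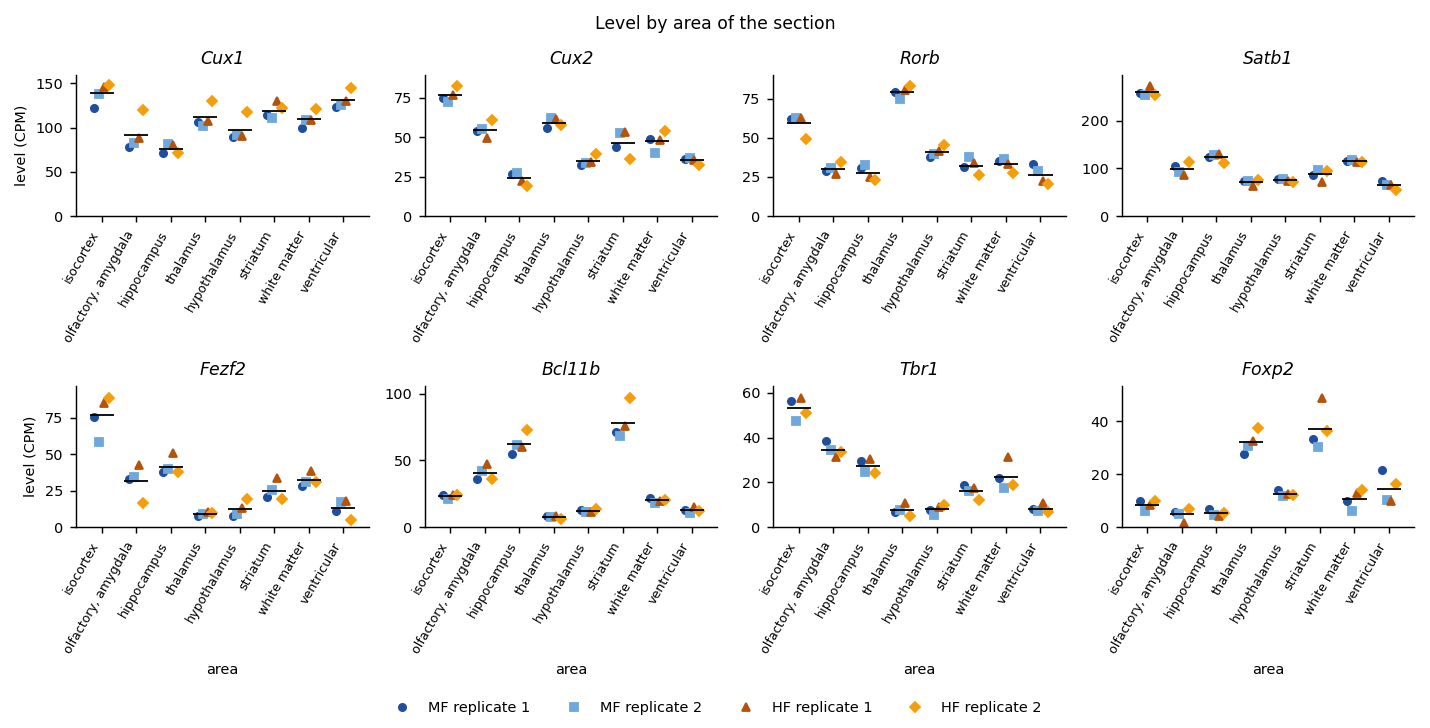
Level of each factor (CPM, 1 panel per gene, axis from 0) in the 8 areas, with 1 point per section (MF and HF marked apart) and a line at the mean of 4. Bcl11b is highest in striatum and hippocampus, Foxp2 in striatum and thalamus and Rorb in thalamus.

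HF was then set against MF, to ask whether the diet of the dam changed these factors. None of the 8 was called by edgeR in the whole section, the 8 areas or the 5 layers. With 2 sections against 2, an exact permutation test of a single value cannot go below p = 0.333, so that the test rests on the spread shared over all genes. Over the whole section 0% of all genes were called (0 of 14971, with 1020 at an unadjusted p under 0.05; DESeq2 called 22, none of the 8). The share of all genes called was 0.16% in the isocortex, 0.0337% in the olfactory and amygdala spots, 0.153% in the hippocampus, 0% in the thalamus and the hypothalamus, 0.0715% in the striatum, 0.0237% in the white matter and 0.0086% in the ventricular system. In the layers it was 0.0532% in L1, 0.511% in L2-3, 0.243% in L4, 0.0744% in L5 and 0.123% in L6. Of 108 pairs of factor and comparison tested (Foxp2 passed the filter on low counts in no layer but L6), 12 had an unadjusted p under 0.05, which is 11.1% beside 6.76% over all genes. Of 372 pairs with the other transcription factors of the list, 76 had such a p. The pairs share sections and spots and are not independent.

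Fezf2 had 5 of these 12. In the isocortex its level was 75.6 and 58.4 CPM in MF and 84.8 and 88.2 CPM in HF, both HF sections above both MF sections (0.36 ± 0.11, edgeR adjusted p = 0.43). In L5 it was 142 and 114 CPM in MF against 160 and 190 CPM in HF (0.39 ± 0.13, adjusted p = 1.0), and in L6 86.1 and 71.5 CPM against 103 and 98.9 CPM (0.33 ± 0.13, adjusted p = 0.76). L2-3 ran the other way, at 12.1 and 12.6 CPM in MF and 5.05 and 3.23 CPM in HF, from 45, 22, 6 and 7 UMIs (-1.63 ± 0.40, adjusted p = 0.061). The groups did not overlap in any of these, as in 32.8% to 39.2% of all genes over the comparisons. The L5 spots of MF replicate 1 lay deeper than those of the other sections, so L5 does not cover the same depth in each. In the hypothalamus Fezf2 was low, at 7.54 and 8.89 CPM in MF and 13.2 and 19.6 CPM in HF (1.0 ± 0.24, adjusted p = 0.69). A test of whether the diet difference itself varied between L2-3, L4, L5 and L6 did not pass for any of the 8 (0.0702% of all genes called), with Fezf2 nearest (adjusted p = 0.066). Nor did the test between 6 areas (0.0882% called, Fezf2 adjusted p = 0.62).

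Grouped by distance from the edge, a choice made after seeing the data, Fezf2 passed in 2 bands. At 400 to 600 µm it was at 36.4 and 70.2 CPM in MF and 87.1 and 102 CPM in HF (0.97 ± 0.19, edgeR adjusted p = 0.0040, 0.431% of all genes called), and at 600 to 800 µm at 94.9 and 91.6 CPM against 149.8 and 154 CPM (0.70 ± 0.13, adjusted p = 0.0058, 0.145% called). Rorb was called without HF replicate 1 alone, at 200 to 400 µm (-0.87, adjusted p = 8e-04) and at 400 to 600 µm (-0.50, adjusted p = 0.036). In the other bands with all 4 sections none of the 8 was called, beside 0.319% of genes at 0 to 200 µm, 0.468% at 200 to 400 µm, 0.124% at 800 to 1000 µm and 0.0742% at 1000 to 1200 µm. The call at 400 to 600 µm was lost without MF replicate 1 (0.45) and without HF replicate 2 (0.85), and that at 600 to 800 µm without MF replicate 1 (0.74, adjusted p = 0.13), MF replicate 2 (0.68, adjusted p = 0.063) or HF replicate 2 (0.67, adjusted p = 0.12). The make-up of the bands moved too: at 400 to 600 µm, L5 spots were 12.5% and 29.6% in MF and 33.8% and 21.4% in HF, and spots in no named layer 17.0% and 15.7% in MF and 6.92% and 16.2% in HF. At 600 to 800 µm, L5 spots were 44.2% and 28.4% in MF and 37.0% and 21.8% in HF, and spots in no named layer 30.2% and 35.3% in MF and 31.5% and 49.4% in HF. The ranges of the groups overlapped in each of these 4. The summed level of 15 L5 marker genes in the isocortex was 1479 and 1395 CPM in MF and 1329 and 1314.5 CPM in HF, and both HF sections were below both MF sections. In the bands the sums overlapped between the groups. They were 1072 and 1309 CPM in MF and 1198 and 1127 CPM in HF at 400 to 600 µm. At 600 to 800 µm they were 1742 and 1897 CPM against 1745 and 1679 CPM. In each of these 2 bands 7 of the 15 markers were higher in both HF sections. The share of all genes that were so was not counted in the bands, so the 7 are not read as a result. In the isocortex 4 of the 15 were, beside 16.8% of all genes there. Their part in the result was not tested.

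The estimates for Cux1 were above 0 in all 14 comparisons, by 0.00 to 0.39, with none called and the smallest adjusted p at 0.59. Its isocortex level was 122 and 138 CPM in MF and 146 and 149 CPM in HF (0.19 ± 0.09, edgeR adjusted p = 0.59). Rorb was lower in HF in 10 of the 14, with estimates of -0.52 to 0.16, and Satb1 stayed within -0.18 to 0.21. Results at this number of sections hinged on single sections. Leaving out HF replicate 1 gave calls for Cux1 (0.27) and Bcl11b (0.28) over the whole section, for Cux1 in the hypothalamus (0.37), olfactory and amygdala spots (0.59) and thalamus (0.32), for Rorb in the isocortex (-0.33) and for Fezf2 in the hypothalamus (1.27), isocortex (0.37), olfactory and amygdala spots (-1.02), L2-3 (-1.89) and L5 (0.50). With that section left out, 1166 genes were called over the whole section in place of 0, and HF rested on 1 section, which was taken to vary as the MF sections do. Summed markers of oligodendrocytes (6 genes) were lower in both HF sections than in both MF sections in the isocortex, at 11372 and 11375 CPM in MF and 9829 and 8473 CPM in HF, and in L2-3, at 7497 and 7714 CPM against 5299 and 4119 CPM. In the isocortex those of astrocytes (5 genes) were lower too, at 787 and 766 CPM in MF and 684 and 658 CPM in HF. Markers of excitatory neurons (4 genes) were higher in both HF sections, at 6339 and 6310.4 CPM in MF against 6654 and 6686 CPM in the isocortex and at 6875 and 6735 CPM against 7238 and 7462 CPM in L2-3. Their part in the result was not tested.

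**Figure D5:**
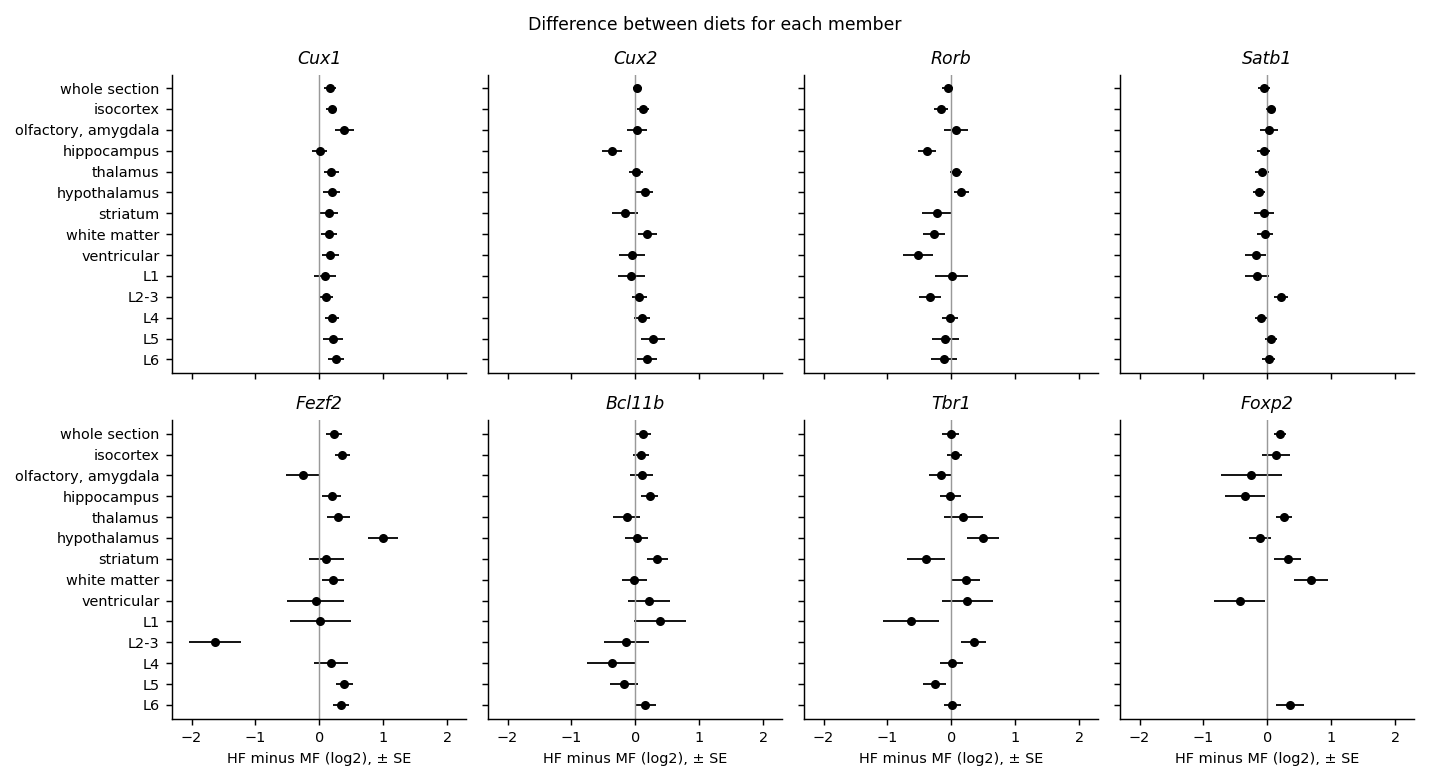
Log2 difference HF minus MF with its SE for each of the 8 factors in the whole section, the areas and the layers, with a line at 0. None was called, and Fezf2 lies above 0 in isocortex, L5 and L6 and below it in L2-3.

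Of 28 other transcription factors of cortical neurons, 27 were in the feature table. By position, 19 of 27 were called between outer and inner bands (14.4% of all genes), 12 of them higher outside, with Neurod1 at 1.32 and Pou3f2 at 1.03 on one side and Otx1 at -1.59 and Nfia at -0.81 on the other. In the isocortex against other areas 25 were called (39.9% of all genes), 24 of them higher, among them Emx1 (1.97). Between L4 and L5, Tshz2 was higher in L5 by 2.81 and Ldb2 by 1.87, and Neurod1 differed by -1.12 and Bhlhe22 by -0.72. In the thalamus, Rora, the paralogue of Rorb, was higher by 2.60, and in the striatum Foxp1, a relative of Foxp2, by 1.84.

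The likeness of profiles was described over 12 levels, 5 layers and 7 areas other than the isocortex, as Pearson's r of mean log2(CPM + 1) among 10205 genes with at least 10 CPM. The levels share libraries and differ in depth, so no p is given. Cux1 and Cux2 were most alike of the 28 pairs among the 8 (0.865), and Satb1 and Tbr1 next (0.853), while Rorb and Bcl11b were least alike (-0.632). The genes nearest to each were Ovol2 for Satb1 (0.963), Myl4 for Fezf2 (0.884), Ext1 for Tbr1 (0.959), Cux2 for Cux1, Zbtb34 for Cux2 (0.867), Extl3 for Rorb (0.883), Crym for Bcl11b (0.919) and Itgb1bp1 for Foxp2 (0.895). The next genes in order were 1110008P14Rik and Plekho1 for Satb1, Pde4a and Nudt19 for Fezf2, Vipr1 and Cort for Tbr1, Tmem218 and Wdr90 for Cux1, Cux1 and Stard8 for Cux2, Orc2 and Sac3d1 for Rorb, Dtnb and Mctp1 for Bcl11b, and Socs6 and Manea for Foxp2. Stard8 was among the genes used to name the layers.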

How the data were processed

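The deposited values were raw UMI counts per gene and spot, made by the authors with Space Ranger on mm10, and a Moran's I score per gene and section deposited by the authors. Per the labels' processing notes, Space Ranger, Seurat and mm10 were used. From the counts, spots with under 500 UMIs or 250 genes (18) were removed. Clusters came from ln(CPM + 1) of 2000 variable genes, 30 components, 20 neighbours and the Leiden method (leidenalg 0.10.2, igraph 0.11.9, scikit-learn 1.9.0), and took a name from at least 3 markers. The 8 members, the marker lists and the comparisons were chosen with earlier results of these data known. The genes named are the 8, the 3 most alike to each, and, from a list of 28 other factors, called ones and the 2 that moved farthest up and down in a comparison. Some results that this rule would name are not reported here. UMI counts were summed per section and tested with edgeR 4.0.16 (quasi-likelihood, TMM, filterByExpr, Benjamini-Hochberg over all genes tested; R 4.3.3). A call needed an adjusted p under 0.05 and at least 1.2-fold. The SE is the log2 difference divided by the root of F. The step was tested on simulated data for sections of this depth: for HF against MF over the whole section, of 200 genes changed 2-fold among 14951, 86% were called, and of 200 changed 1.5-fold, 47%. False calls among the unchanged genes numbered 13 and 5. With 200 genes changed 2-fold, 94.5% were called in the isocortex with 25 false calls, and 86.5% in L5 with 16. With 200 changed 1.5-fold, 75% were called in the isocortex with 15 false calls, and 51.5% in L5 with 8. For layer by diet, 74.5% were called at 2-fold with 5 false calls. Changes under 1.5-fold were not simulated. Same-numbered sections did not deviate together (correlations of -0.171 to 0.042 over the 14 groups of spots). Alternatives were library size alone, no filter, DESeq2 1.42.0, a replicate block, spots thinned to 5000 UMIs, other clusterings, other bands and each section left out.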

Additional observations from a re-analysis of the deposited data

How the results depend on the processing

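Member calls in the layers, depth and areas kept within 1.5 times of 24, 7 and 47 in all alternatives. Of the alternative values of single genes, 2108 kept their side of the threshold, 37 were newly called, 40 lost the call and 1 called value turned its sign, that of Cux2 from L5 to L6 (0.47 to -0.27 at Leiden resolution 1.5). Calls between HF and MF, 0 for the 8 factors, changed more. Leaving out 1 section gave 0 to 2 over the whole section, 0 to 7 over the areas, 0 to 2 over the layers, 0 to 1 for layer by diet and 0 to 2 for area by diet. The highest counts were those without HF replicate 1, where calls over all genes rose too in each of these comparisons. They are not read as results about the 8 factors. Without a filter on low counts there were 2 over the areas (Fezf2 in isocortex and hypothalamus), 1 over the layers (Fezf2 in L2-3), 1 for layer by diet and 1 for area by diet (both Fezf2). Calls over all genes rose too without the filter, from 56 to 716 over the areas and from 110 to 217 over the layers. For layer by diet they rose from 8 to 27 and for area by diet from 12 to 308. The replicate block gave 1 over the areas (Fezf2 in the isocortex, 0.38, edgeR adjusted p = 0.034) and 0 over the whole section and the layers. Over all genes the block gave 299 calls over the areas, 129 over the layers and 0 over the whole section. With the 8 factors kept in the clustering, 1 was called over the layers (Fezf2 in L5, 0.48), beside 127 calls over all genes. In that setting the factors themselves could help to group the spots. Bands of distance gave 2 (Fezf2). The labels give same-numbered sections only a number in common, and their correlation was -0.165 over the whole section. That value cannot show whether any sections shared a litter or a batch. A crossed pairing, tried after seeing the data, gave 0, 0 and 1 member calls over the section, areas and layers. Over all genes it gave 11, 544 and 178 calls. DESeq2 and thinned spots gave 0 over the section, areas and layers, and library size alone gave 0 in these and in both tests of the interaction. Over all genes, calls between HF and MF ranged from 0 to 1166 for the whole section (0 as reported), 18 to 848 for the isocortex (21) and 17 to 295 for L2-3 (57). The cause was not tested. Depth limits Foxp2 in the outer layers and Fezf2 in L2-3, which rest on 1 to 45 UMIs a section.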
